A study of Rattus norvegicus with 16 samples.

Results

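The left ventricle was examined 2 weeks after 5/6 nephrectomy, the earliest of the 4 time points of the series, and 4 of the 16 small RNA libraries belong to it. They were chosen by their labels alone: 2 libraries of rats after 5/6 nephrectomy by excision (5/6Nx, surgery that takes away most of the kidney tissue) and 2 libraries of sham-operated rats of the same week. All were male Sprague Dawley rats on a 0.4% chow of Dyets, operated on at 10 weeks of age, and the other 12 libraries hold the same 2 surgeries at weeks 4, 5 and 7. Each library was made from a pool of 2 to 3 rats, called pool A or pool B, so that the pool and not the rat is the replicate, and rats of both groups had surgery. The labels do not say whether pools of a group share animals, litters or an extraction, so p-values measure the spread between pools. The study places these hearts in cardiorenal syndrome type 4, in which chronic kidney disease precedes disease of the heart. Whole ventricle was used, and in such bulk tissue fewer cells of a type and less miRNA per cell cannot be told apart.

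A miRNA is a short RNA that guides an Argonaute protein to messenger RNAs and lowers their output. It is cut from a hairpin, and either side of the stem (the 5p arm and the 3p arm) can be loaded, usually with 1 arm kept and the other broken down. Recognition of a target rests mostly on bases 2 to 8, the seed, so miRNAs with a shared seed are grouped as a family, and hairpins made from 1 transcript as a cluster. In the heart, miR-1, miR-133a, miR-208a and miR-499 are made by cardiomyocytes, miR-143 and miR-145 by smooth muscle, and miR-126 by endothelium.

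The sequences of the miRNAs on which the results turn are given first, as RefSeq annotates them on the rat assembly GRCr8, with the seed in capitals. Of the 358 rat miRNAs listed at week 2, 320 matched a mature sequence there by name. The pair that passed the test across all miRNAs follows:
miR-145-5p: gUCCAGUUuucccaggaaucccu
miR-201-5p: cACUCAGUaaggcauuguuc

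Arms of several hairpins differed in direction or size. Both arms of these are shown, since they carry different seeds:
miR-145-3p: gGAUUCCUggaaauacuguuc
miR-22-5p: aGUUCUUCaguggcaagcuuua
miR-22-3p: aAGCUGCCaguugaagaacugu
miR-208a-5p: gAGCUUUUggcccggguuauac
miR-208a-3p: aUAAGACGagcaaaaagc
miR-21-5p: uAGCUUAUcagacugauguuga
miR-21-3p: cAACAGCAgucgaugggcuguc

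The let-7 family is shown because all of its 5p members lay lower after 5/6Nx while their seed is the same:
let-7a-5p: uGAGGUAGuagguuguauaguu
let-7b-5p: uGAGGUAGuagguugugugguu
let-7c-5p: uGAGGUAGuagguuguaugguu
let-7d-5p: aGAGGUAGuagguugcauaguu
let-7e-5p: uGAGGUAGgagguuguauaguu
let-7f-5p: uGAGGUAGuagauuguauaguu
let-7i-5p: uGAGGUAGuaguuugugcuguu
miR-98-5p: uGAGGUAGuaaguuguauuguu

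The miR-125 seed is carried by a member from the X-linked cluster, miR-351-5p, and the miR-17 seed by members of separate clusters:
miR-125a-5p: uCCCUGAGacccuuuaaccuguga
miR-125b-5p: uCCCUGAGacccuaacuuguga
miR-351-5p: uCCCUGAGgagcccuuugagccuga
miR-17-5p: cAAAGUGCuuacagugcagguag
miR-20a-5p: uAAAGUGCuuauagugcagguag
miR-106b-5p: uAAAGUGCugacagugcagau
miR-93-5p: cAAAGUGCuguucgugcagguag

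In contrast to these, members with the seed of miR-16 lay on both sides of sham:
miR-16-5p: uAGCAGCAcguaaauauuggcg
miR-195-5p: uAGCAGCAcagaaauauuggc
miR-322-5p: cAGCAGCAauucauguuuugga
miR-497-5p: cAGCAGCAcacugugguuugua

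A few sequences differ by a single base or mirror each other, which limits how far their counts are separate. They are shown with the erythroid pair:
miR-133a-3p: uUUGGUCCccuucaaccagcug
miR-133b-3p: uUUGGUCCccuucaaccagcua
miR-23a-3p: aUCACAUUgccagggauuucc
miR-23b-3p: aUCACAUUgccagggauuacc
miR-210-3p: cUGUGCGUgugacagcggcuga
miR-3574: uCAGCCGCugucacacgcacag
miR-451-5p: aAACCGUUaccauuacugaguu
miR-144-3p: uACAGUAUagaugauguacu

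The rat miRNA counts totalled 1239829 and 1671456 in the 5/6Nx pools, against 1721880 and 2795801 in the sham pools. Of all reads, 70.1% and 79.0% mapped in the 5/6Nx libraries, against 82.7% and 88.5% in the sham libraries, so both depth and mapping were lower after 5/6Nx. The part of either in the results was not tested. Levels of the 306 miRNAs tested correlated between the 4 libraries at r = 0.985 to 0.993 on the log scale. Levels are given as CPM, in which a library's rat miRNA counts are brought to a common total with edgeR's TMM scaling. The sham pools of week 5, which enter the week 2 comparison through the spread and scaling that all libraries of the fit share, stood apart: the median absolute log2 difference between them was 0.45, against 0.14 to 0.29 in the other 7 groups. The count of calls is therefore also given without week 5, a choice made after the data were seen.

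Smooth muscle miR-145-5p rose and miR-201-5p fell in the left ventricle at week 2, and these were the only 2 of 306 miRNAs (0.654%) past an adjusted p of 0.05. miR-145-5p, which holds smooth muscle cells in their contractile state, had 1251 and 1151 CPM in the 5/6Nx pools, against 764 and 638 CPM in the sham pools. Its log2 change was 0.78 ± 0.15 (SE), a 1.71-fold higher level (edgeR, adjusted p = 0.0259). miR-201-5p, from an X-linked cluster of rodents, had 51.5 and 57.0 CPM in the 5/6Nx pools, against 92.2 and 124 CPM in the sham pools. The log2 change was -1.001 ± 0.20, a 2.00-fold lower level (adjusted p = 0.0259). For both miRNAs the groups did not overlap.

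Neither call held under every alternative, while both directions did. As the groups' pools did not overlap for either miRNA, these alternatives could hardly turn the direction. Without the week 5 libraries the adjusted p was 0.00394 for each. Leaving out 1 of the 16 libraries at a time ended the miR-145-5p call in 9 fits: each of those without 1 of 3 week 2 pools (5/6Nx A, 5/6Nx B and sham B), 1 of the 4 week 4 pools, or 1 of the 5/6Nx pools of week 5. It ended the miR-201-5p call in 8 of these, the exception being week 4 sham pool A. Over the 16 fits the log2 change of miR-145-5p ran between 0.65 and 0.87 and its adjusted p between 0.00331 and 0.501, and that of miR-201-5p between -1.23 and -0.76, with an adjusted p between 0.00264 and 0.501. With all entries in the fit, the adjusted p was 0.107 for miR-145-5p and 0.0611 for miR-201-5p. miR-145-5p was also lost with weeks 2, 4 and 5 alone (adjusted p = 0.0690), and miR-201-5p with week 2 alone (adjusted p = 0.0604).

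The number of calls varied with the libraries and the test. Without week 5, 48 miRNAs passed, 23 of them higher and 25 lower after 5/6Nx, and 46 of the 48 were among the 64 of the full fit with an unadjusted p under 0.05. Leaving out a single sham pool of week 5, A or B, gave 53 and 56. DESeq2 on all 16 libraries called 39, of which 18 were higher and 21 lower. With the 4 week 2 libraries alone, edgeR called 3 of 280 miRNAs (1.07%), all higher: miR-145-5p, miR-21-3p and miR-451-5p. Adjusted p-values without week 5 are printed here only for miRNAs that passed there, and most of these did not pass with week 2 alone. Other named miRNAs failed without week 5 as well (edgeR). Their adjusted p was 0.0626 for miR-193-3p, 0.0990 for miR-221-3p, 0.116 for miR-133b-3p, 0.120 for miR-223-3p and 0.129 for miR-20a-5p. No miRNA passed in the full fit without week 2 sham pool B, or without week 2 5/6Nx pool A, and 1 passed without 5/6Nx pool B (miR-23b-3p). In the authors' deposited table, 7 rat miRNAs had a p under 0.05 at week 2, none of them after adjustment, and miR-451-5p had the smallest adjusted p, 0.522.

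TMM scaling centres most log ratios near 0, so the even split over all miRNAs is set largely by the scaling and is given only as the background for the families. Of the 306, 157 (51.3%) lay above sham and 149 (48.7%) below, with a median log2 change of 0.03. An unadjusted p under 0.05 was reached by 64 (20.9%), 32 in each direction. In 185 of 306 (60.5%) the groups' pools did not overlap, 93 above (30.4%) and 92 below (30.1%), and the counts in families below are to be read against these shares. A log2 change beyond 1 in either direction was seen in 17. The 52 listed miRNAs left untested were either low or not listed at every week, and the highest of their values at week 2 was 15.95 CPM.

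**Figure D1:**
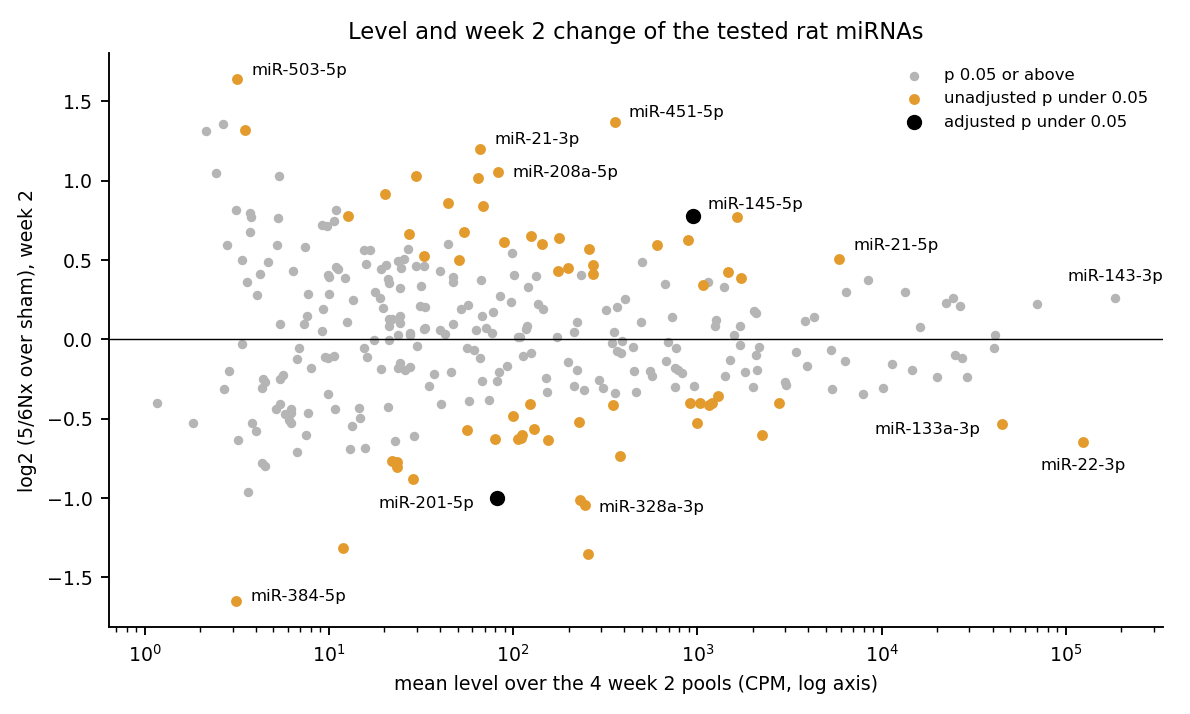
Mean level of 306 miRNAs over the 4 week 2 pools (CPM, log axis) against the log2 change, 5/6Nx over sham. Black points passed an adjusted p of 0.05 (miR-145-5p at 0.78, miR-201-5p at -1.001), orange points had an unadjusted p under 0.05 (62 more), and grey points did not.

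Among miRNAs of cardiomyocytes, the list split, with 5 of 10 tested above sham and 5 below, a median log2 change of -0.03, and pools that did not overlap in 8. None passed. miR-133a-3p, which restrains growth of the cardiomyocyte and is held in a cluster with miR-1, had 40851 and 32786 CPM in the 5/6Nx pools, against 46659 and 59973 CPM in the sham pools. The groups did not overlap, and the log2 change was -0.53 ± 0.17 (adjusted p = 0.0934, and 0.0271 without week 5). Its other arm, miR-133a-5p, had 132 and 111 CPM in the 5/6Nx pools, against 179 and 197 CPM in the sham pools, a log2 change of -0.64 ± 0.16 (adjusted p = 0.0649). Both arms thus lay lower in both 5/6Nx pools. The 5 members above sham include miR-133c (log2 change 0.30), the reverse complement of miR-133a-3p over 21 bases. Its counts per count of miR-133a-3p were 0.190 and 0.196 in the 5/6Nx pools, against 0.127 and 0.0934 in the sham pools. The split and the median of the list count it as a member, and whether it is separate from miR-133a-3p was not tested.

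The near-identical miR-133b-3p, whose mature sequence differs from miR-133a-3p in its last base, lay on the other side, with 34.1 and 33.2 CPM in the 5/6Nx pools, against 17.5 and 24.2 CPM in the sham pools (log2 change 0.66 ± 0.27, adjusted p = 0.168). How reads that match both were shared between them is not given in the sources used here, so this opposite direction is uncertain. miR-1-3p, a miRNA of skeletal and heart muscle, had 1475 and 2834 CPM in the 5/6Nx pools, against 1798 and 2009.6 CPM in the sham pools, so that the groups overlapped and pool B of 5/6Nx stood alone above the rest. Without that pool its log2 change was -0.39 rather than 0.18.

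miR-208a is encoded within Myh6, the gene of the fast alpha myosin heavy chain, and takes part in the stress response of that myosin. Its main arm, miR-208a-3p, had 782 and 641 CPM in the 5/6Nx pools, against 795 and 814 CPM in the sham pools (log2 change -0.18 ± 0.19). The passenger arm, miR-208a-5p, had 132 and 91.8 CPM in the 5/6Nx pools, against 63.6 and 44.3 CPM in the sham pools, a log2 change of 1.06 ± 0.32 (adjusted p = 0.0934, and 0.00755 without week 5). Pools of both groups were apart for each arm, in opposite directions. For miR-208a-3p they were apart only narrowly, and its log2 change was -0.06 without 5/6Nx pool B. miR-208b-3p, encoded within Myh7, the gene of the slow beta myosin, had 1619.5 and 1014 CPM in the 5/6Nx pools, against 1181 and 1242 CPM in the sham pools, with overlapping groups. From Myh7b, miR-499-5p had 967 and 754 CPM in the 5/6Nx pools, against 1090.5 and 1016 CPM in the sham pools, and miR-499-3p had 89.1 and 78.6 CPM in the 5/6Nx pools, against 122 and 111 CPM in the sham pools. Both arms of miR-499 lay lower, with log2 changes of -0.29 ± 0.14 and -0.48 ± 0.16.

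In smooth muscle, the cluster of miR-143 and miR-145 within the noncoding gene Carmn on chromosome 18 had 4 tested members, 2 above sham and 2 below, with no overlap for any of them. miR-143-3p, the miRNA with the most counts at week 2, had 195840.0 and 207379 CPM in the 5/6Nx pools, against 188711 and 147673 CPM in the sham pools (log2 change 0.26 ± 0.35). The direction matched that of miR-145-5p, while miR-145-3p and miR-143-5p were lower, with log2 changes of -0.29 ± 0.25 and -0.15 ± 0.23. Endothelial miR-126a-5p, which in this tissue had more counts than its partner arm, had 26842 and 26642 CPM in the 5/6Nx pools, against 23835 and 20780.5 CPM in the sham pools. miR-126a-3p had 3845 and 3585 CPM in the 5/6Nx pools, against 4051 and 4304 CPM in the sham pools, so that the arms pointed apart, with log2 changes of 0.26 ± 0.39 and -0.17 ± 0.16.

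Fibroblast miRNAs of the cluster of miR-199 and miR-214 gave no common direction: miR-199a-3p had 1955 and 1969 CPM in the 5/6Nx pools, against 2224 and 2266 CPM in the sham pools, and 2 of the 3 tested members lay above sham with overlapping groups. Leukocyte miRNAs were also mixed, 7 of 9 above sham with a median of 0.07. Lymphocyte miR-150-5p had 1455 and 2108 CPM in the 5/6Nx pools, against 2451 and 2963 CPM in the sham pools, a log2 change of -0.60 ± 0.18 (adjusted p = 0.0934, and 0.0265 without week 5). Myeloid miR-223-3p had 62.6 and 56.4 CPM in the 5/6Nx pools, against 43.5 and 40.8 CPM in the sham pools, a log2 change of 0.50 ± 0.20. The groups were apart for both, in opposite directions.

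All 3 tested erythroid miRNAs lay above sham, with a median log2 change of 1.02, and 2 of them had no overlap. miR-451-5p, which is cut by Argonaute 2 rather than Dicer and fills red blood cells, had 631 and 397 CPM in the 5/6Nx pools, against 178 and 218 CPM in the sham pools. The log2 change was 1.37 ± 0.38, a 2.59-fold higher level (adjusted p = 0.0725, 0.00755 without week 5). miR-144-3p, from the same cluster, had 111 and 62.8 CPM in the 5/6Nx pools, against 34.99 and 49.4 CPM in the sham pools, a log2 change of 1.02 ± 0.36, and miR-144-5p one of 0.36 ± 0.39. Without 5/6Nx pool A, which stood highest, the list median was 0.51 and equal to the change of miR-144-3p. The summed level of the 3 was 803 and 505 CPM in the 5/6Nx pools, against 248 and 314 CPM in the sham pools, 0.0480% of rat miRNA counts over the 4 libraries. Red cells left in the ventricle carry these miRNAs too, and their part in the result was not tested.

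Markers of other organs were present too, at 0.225% of rat miRNA counts over the 4 libraries, close to the shares of the fibroblast and leukocyte lists below. Of 13 tested, 9 lay above sham and 4 below, with a median log2 change of 0.35 that was 0.052 without 5/6Nx pool A and 0.14 without sham pool A, and none passed. The 18 listed entries summed to 2187 and 2394 CPM in the 5/6Nx pools, against 1958 and 1707 CPM in the sham pools, most of it miR-192-5p, which kidney and gut epithelium hold at high levels. miR-192-5p had 1844 and 2041 CPM in the 5/6Nx pools, against 1630.1 and 1346 CPM in the sham pools, a log2 change of 0.38 ± 0.13 (adjusted p = 0.102). Its cluster partner miR-194-5p had 65.4 and 63.3 CPM in the 5/6Nx pools, against 63.1 and 60.6 CPM in the sham pools. The log2 change was 0.06 for miR-194-5p and -0.04 for miR-141-3p. Groups overlapped for the epithelial markers miR-141-3p, miR-200a-3p, miR-200b-3p and miR-429. miR-200c-3p and miR-215 lay above sham, with at most 6.86 CPM in any pool. Neural miR-9a-5p had 162 and 185 CPM in the 5/6Nx pools, against 174 and 170.4 CPM in the sham pools, and squamous miR-205 had at most 2.87 CPM in any pool. Another squamous marker, miR-203a-3p, had 18.1 and 16.9 CPM in the 5/6Nx pools, against 22.3 and 36.4 CPM in the sham pools. Of the 13 tested, 2 had an unadjusted p under 0.05 (edgeR), 1 in each direction, beside 20.9% of all 306. The part of such cells or of carried RNA in the results was not tested. Over the 4 libraries, smooth muscle miRNAs held 20.2% of rat miRNA counts, myocyte miRNAs 6.65%, endothelial miRNAs 3.13%, leukocyte miRNAs 0.331% and fibroblast miRNAs 0.280%, so the muscle and vessel markers of a ventricle were present.

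**Figure D2:**
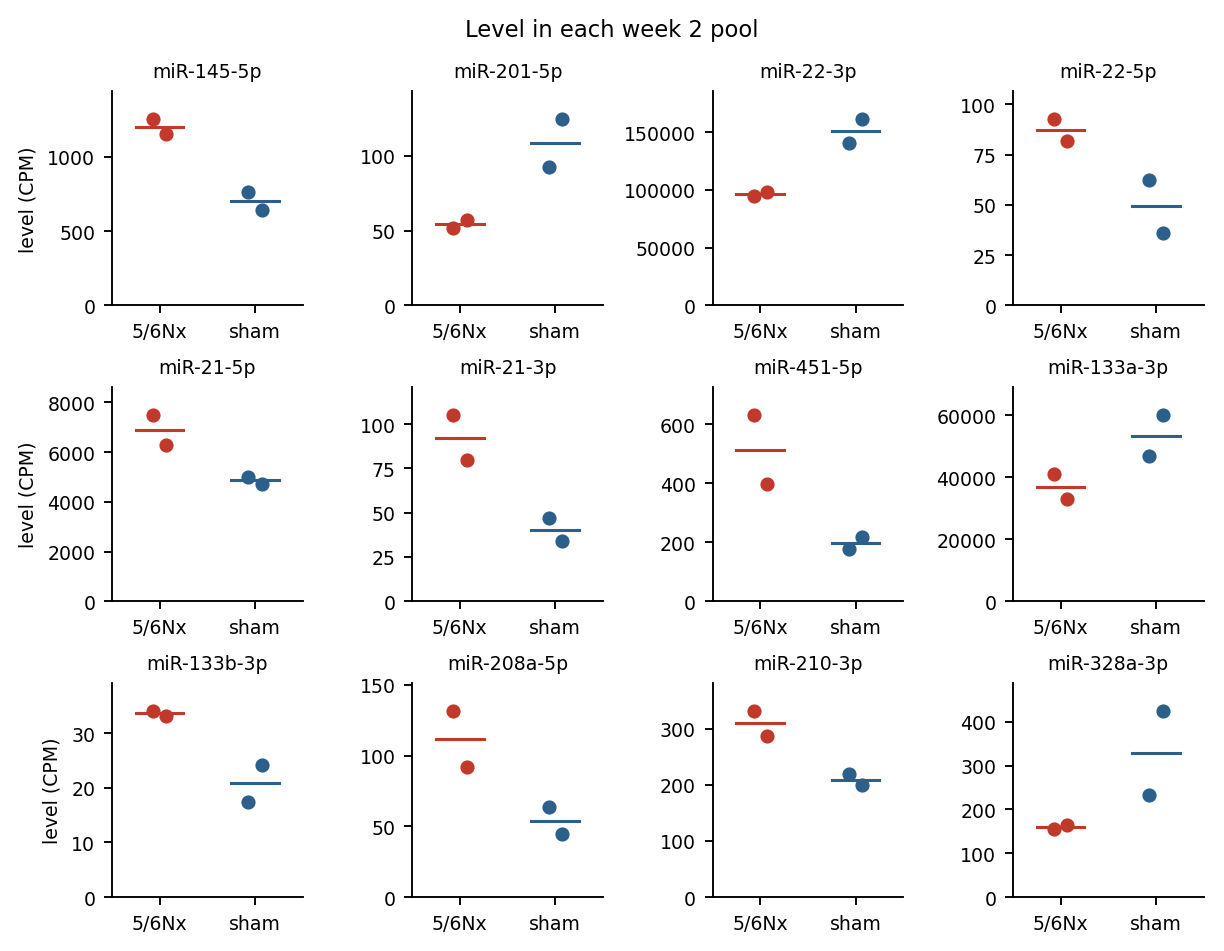
Levels of 12 miRNAs in CPM, with a point for each week 2 pool (red, 5/6Nx; blue, sham) and a line at the mean of each group; every axis starts at 0. The groups are apart in all 12 panels, with miR-22-3p at 94806 and 98284 CPM after 5/6Nx and 140761 and 161170.0 CPM in sham.

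Several miRNAs studied in heart disease had groups apart without passing in the full fit. miR-21-5p, known from cardiac fibroblasts and fibrosis, had 7491 and 6301 CPM in the 5/6Nx pools, against 4989.5 and 4736 CPM in the sham pools, a log2 change of 0.50 ± 0.14 (adjusted p = 0.0725, 0.0134 without week 5). Its passenger arm, miR-21-3p, had 105 and 79.6 CPM in the 5/6Nx pools, against 47.2 and 33.8 CPM in the sham pools, a log2 change of 1.20 ± 0.32 (adjusted p = 0.0652, 0.00394 without week 5). Both arms lay above every sham pool.

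miR-22-3p, a miRNA of striated muscle linked in mice to hypertrophy, had 94806 and 98284 CPM in the 5/6Nx pools, against 140761 and 161170.0 CPM in the sham pools. The log2 change was -0.64 ± 0.16, a 1.56-fold lower level (adjusted p = 0.0649, 0.0104 without week 5). In contrast, its 5p arm had 92.6 and 81.8 CPM in the 5/6Nx pools, against 62.6 and 36.1 CPM in the sham pools, a log2 change of 0.84 ± 0.26. The arms of the hairpin therefore lay on opposite sides of sham.

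miR-210-3p, the miRNA most firmly tied to hypoxia through HIF-1, had 332 and 288 CPM in the 5/6Nx pools, against 219 and 199 CPM in the sham pools, a log2 change of 0.57 ± 0.15 (adjusted p = 0.0649, 0.0162 without week 5). The other arm, miR-210-5p, had as few as 4 counts in a pool, overlapping groups and a log2 change of -0.80. miR-3574 is the exact reverse complement of miR-210-3p over 22 bases and had 236 and 199 CPM in the 5/6Nx pools, against 147 and 131 CPM in the sham pools. Its counts per count of miR-210-3p were 0.711 and 0.690 in the 5/6Nx pools, against 0.673 and 0.660 in the sham pools, so the pair is a single observation. In all, 26 pairs of listed miRNAs were reverse complements over at least 15 bases, 21 of them with both entries tested, and in 17 of the 21 the ratio of counts varied by less than 1.5 times over the 4 libraries. Leaving out 1 entry of each pair again called miR-145-5p and miR-201-5p alone.

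miR-328a-3p, reported in other work to act on calcium channels of the atrium, had 155 and 165 CPM in the 5/6Nx pools, against 233 and 424.6 CPM in the sham pools, a log2 change of -1.04 ± 0.26 (adjusted p = 0.0649, 0.0116 without week 5). Sham pool B was well above sham pool A there, and without it the log2 change was -0.54. The same pool led in both arms of miR-423, with 127 and 179 CPM in the 5/6Nx pools, against 234 and 384 CPM in the sham pools for miR-423-5p and 148 and 140.3 CPM in the 5/6Nx pools, against 249 and 487 CPM in the sham pools for miR-423-3p. Log2 changes were -1.01 ± 0.34 and -1.35 ± 0.50, and -0.60 and -0.78 without sham pool B. Other low-lying miRNAs with groups apart were miR-671 (log2 change -0.88 ± 0.28), miR-128-3p (-0.60 ± 0.21) and miR-28-5p (-0.52 ± 0.18). Higher ones were miR-345-5p (log2 change 0.86 ± 0.24), miR-598-3p (1.03 ± 0.31), miR-193-3p (0.68 ± 0.24) and miR-103-3p (0.43 ± 0.13).

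The let-7 family, whose members promote differentiation and hold back growth, leaned lower as a whole. Of its 16 tested members 14 lay below sham, with a median log2 change of -0.22, and for 9 of the 16 both 5/6Nx pools were below both sham pools; none passed. Over all 306 miRNAs the share below was 48.7% and the share with pools below 30.1%. All 8 members with the GAGGUAG seed lay below, their log2 changes between -0.40 (let-7d-5p) and -0.09 (miR-98-5p), and for 6 of the 8 the groups did not overlap. Their summed level was 43628 and 48490 CPM in the 5/6Nx pools, against 53502 and 53766 CPM in the sham pools. let-7d-5p had 859 and 929 CPM in the 5/6Nx pools, against 1147 and 1216 CPM in the sham pools (log2 change -0.40 ± 0.13, adjusted p = 0.102), and its partner let-7d-3p had 281 and 294 CPM in the 5/6Nx pools, against 347 and 606 CPM in the sham pools (log2 change -0.73 ± 0.24, and -0.27 without sham pool B). The highest counts were on let-7f-5p, with 17322 and 19332 CPM in the 5/6Nx pools, against 21558 and 21689.8 CPM in the sham pools. let-7a-5p had 6736 and 7217 CPM in the 5/6Nx pools, against 8862 and 8815 CPM in the sham pools, and miR-3596a, its mirror entry, had 25346 and 28267 CPM in the 5/6Nx pools, against 31540.2 and 31578 CPM in the sham pools. Members of the family differ by few bases, as their sequences above show, so their counts may be shared and are not separate observations.

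The miR-125 family, founded by the worm miRNA lin-4 and often encoded beside let-7 and miR-99, lay lower in 5 of 5 tested members, each with no overlap, and with a median log2 change of -0.26. miR-125a-5p had 2680.2 and 2774 CPM in the 5/6Nx pools, against 3149 and 3418 CPM in the sham pools, and miR-125b-5p had 1767 and 1600.3 CPM in the 5/6Nx pools, against 1927 and 1948 CPM in the sham pools. No member had an unadjusted p under 0.05. miR-351-5p, which holds the same seed, had 717 and 912 CPM in the 5/6Nx pools, against 1039 and 1313 CPM in the sham pools, a log2 change of -0.53 ± 0.16 (adjusted p = 0.0934, 0.0271 without week 5). The summed level of the 3 was 5164 and 5287 CPM in the 5/6Nx pools, against 6115 and 6679.8 CPM in the sham pools. By contrast, the miR-99/100 family, neighbours of let-7 and miR-125 in the genome, had 4 of 5 members above sham and a median of 0.07.

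miRNAs of the miR-17-92, miR-106b-25 and miR-106a-363 clusters, which promote cell division, had 9 of 13 tested members above sham and a median log2 change of 0.36, which was 0.10 without sham pool B and 0.16 without 5/6Nx pool A. Pools did not overlap for 9, of which 6 lay above and 3 below, and none passed. By seed, all 4 members with the AAAGUGC seed lay above, with a median of 0.49: miR-20a-5p had 43.2 and 34.3 CPM in the 5/6Nx pools, against 31.3 and 22.97 CPM in the sham pools, a log2 change of 0.52 ± 0.23, and miR-93-5p had 407 and 373 CPM in the 5/6Nx pools, against 350.4 and 328 CPM in the sham pools. Their summed level was 553 and 488 CPM in the 5/6Nx pools, against 461 and 399 CPM in the sham pools. miR-19b-3p, of another seed, had 162 and 142 CPM in the 5/6Nx pools, against 109 and 121 CPM in the sham pools. Of the 5 tested miRNAs with the AUUGCAC seed, 4 lay lower, with a median of -0.31. These 5 include miR-32-5p and miR-92b-3p, which are not in the list of these clusters. miR-25-3p, which is in it, had a log2 change of -0.03. miR-92a-3p had 4565 and 5098 CPM in the 5/6Nx pools, against 5494 and 6494 CPM in the sham pools. Several of these differ by few bases, so reads may be shared among them.

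Members of the miR-15/16 family, known for arrest of the cell cycle, had no common direction. Of 6 tested members 3 were above sham and 3 below. miR-195-5p, which halts division of cardiomyocytes in newborn mice, had 787 and 661 CPM in the 5/6Nx pools, against 553 and 409 CPM in the sham pools, a log2 change of 0.59 ± 0.21 (adjusted p = 0.102, 0.0185 without week 5). miR-497-5p, from the same transcript, had 394 and 430.4 CPM in the 5/6Nx pools, against 493 and 544 CPM in the sham pools, a log2 change of -0.33 ± 0.24. miR-16-5p had 4797 and 4254 CPM in the 5/6Nx pools, against 4136 and 4076 CPM in the sham pools, and miR-322-5p, the rodent form of miR-424, had 1144 and 1113 CPM in the 5/6Nx pools, against 1408 and 1488 CPM in the sham pools. Summed over the seed, the level was 7478 and 6791 CPM in the 5/6Nx pools, against 6935 and 6868 CPM in the sham pools, so the sums overlapped.

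The miR-23/27/24 clusters each encode miRNAs of 3 seeds, and act in vessels and muscle. Of 9 tested members, 6 lay above sham, with a median of 0.09. miR-23b-3p had 2547 and 1602 CPM in the 5/6Nx pools, against 1389 and 1039.7 CPM in the sham pools, a log2 change of 0.77 ± 0.20, and 0.35 without 5/6Nx pool A (adjusted p = 0.0649, 0.0137 without week 5). Its paralog miR-23a-3p, which differs from it near the 3′ end, had 1278 and 1129 CPM in the 5/6Nx pools, against 1007 and 890.1 CPM in the sham pools. miR-24-3p, made by both clusters, had 1263 and 891 CPM in the 5/6Nx pools, against 763 and 631 CPM in the sham pools, a log2 change of 0.63 ± 0.21, and 0.31 without 5/6Nx pool A. miR-27b-3p had 41195 and 41861 CPM in the 5/6Nx pools, against 44163 and 37411 CPM in the sham pools, overlapping and with a log2 change of 0.03 ± 0.14. In the miR-23b/27b/24-1 cluster of chromosome 17 the median of 5 members was 0.63, which is the change of miR-24-3p itself. The cluster of chromosome 19, which also counts miR-24-3p, had a median of 0.09 over 5 members.

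**Figure D3:**
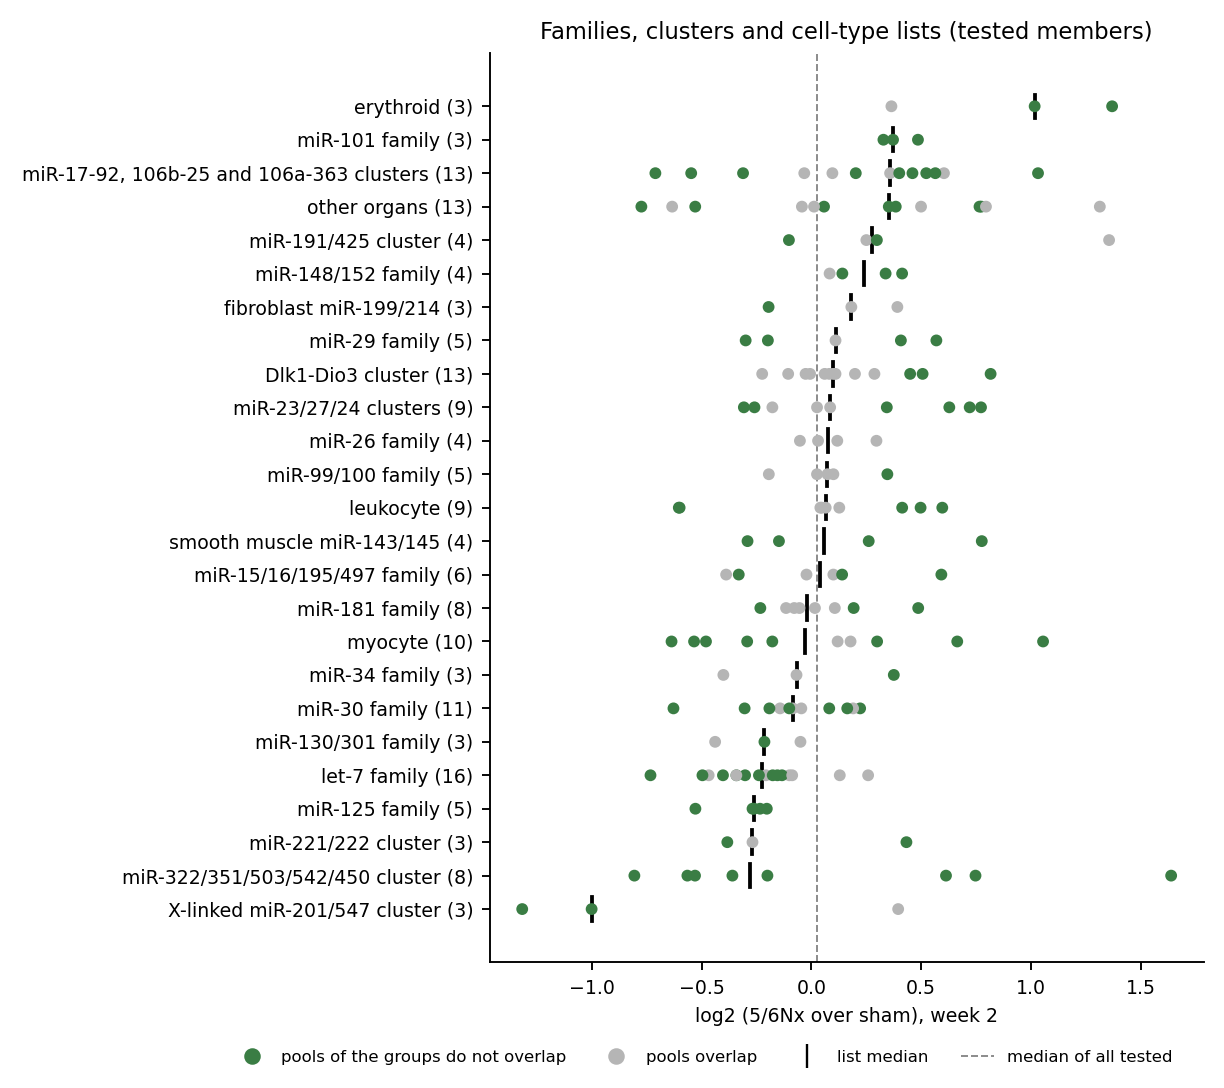
Log2 change (5/6Nx over sham) of every tested member of the 25 lists with at least 3 tested members, sorted by median from highest (top) to lowest; black ticks are list medians and the dashed line is the median of all 306 at 0.03. Green points have no overlap between the groups' pools; the let-7 and miR-125 lists sit left of the line with medians of -0.22 and -0.26, and the erythroid list sits right at 1.02.

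Many list medians moved with single pools. In 13 of the 25 lists the median changed sign when 1 of the 4 week 2 pools was left out, among them those of the myocyte, smooth muscle, fibroblast and leukocyte lists, of the pair of miR-191 and miR-425 (median 0.27, and -0.11 without 5/6Nx pool B) and of the pair of miR-221 and miR-222 (-0.27, and 0.36 without sham pool B). In the other 12 the sign held, but in 7 of these a pool left out brought the median more than 1.5 times nearer to 0. These were the erythroid list, the miR-17-92 clusters, the other organs, the Dlk1-Dio3 cluster, miR-26 (0.074, and 0.012 without sham pool B), and the families of miR-130 and miR-148. Medians of let-7, miR-125, miR-101 and both X-linked clusters moved less. Of 42 named miRNAs with an unadjusted p under 0.05, 20 had a log2 change brought more than 1.5 times nearer to 0 by leaving out 1 week 2 pool. None of the 42 changed sign, but in all of them the groups' pools did not overlap. Leaving out a pool could therefore hardly turn the sign, and the kept signs are no sign of stability.

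Smaller families with a common direction were miR-101 (3 of 3 above, median 0.37, no overlap in any), the pair of miR-103 and miR-107 (2 of 2 above, median 0.34) and the family of miR-148 and miR-152 (4 of 4 above, median 0.24, and 0.14 without sham pool B). Both arms of miR-378a, a regulator of fatty acid oxidation encoded in Ppargc1b, a gene of the PGC-1 family, lay above sham: miR-378a-5p had 181 and 164 CPM in the 5/6Nx pools, against 119 and 109 CPM in the sham pools (log2 change 0.60 ± 0.20), and miR-378a-3p had 26560.1 and 30640.3 CPM in the 5/6Nx pools, against 25195 and 24288 CPM in the sham pools (log2 change 0.21 ± 0.14). The family of miR-130 and miR-301 had 3 of 3 below, with a median of -0.21, and -0.089 without sham pool B. The miR-29 family, which lowers collagen, was divided by member, 3 of 5 above: miR-29a-3p had 1919.5 and 1677 CPM in the 5/6Nx pools, against 2174 and 2251 CPM in the sham pools, whereas miR-29b-3p had 131 and 99.2 CPM in the 5/6Nx pools, against 90.1 and 82.9 CPM in the sham pools. miR-30, abundant in cardiomyocytes, had 4 of 11 members above and a median of -0.08. miR-30a-5p had 73109.5 and 76236 CPM in the 5/6Nx pools, against 66455 and 61554 CPM in the sham pools, and miR-30c-5p had 8623 and 9527 CPM in the 5/6Nx pools, against 10080.3 and 12324 CPM in the sham pools, on opposite sides with no overlap in either. The imprinted Dlk1-Dio3 cluster had 9 of 13 above, a median of 0.10 (0.036 without 5/6Nx pool A), and pools apart in 3.

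The X-linked cluster of miR-450a, miR-542, miR-351, miR-503 and miR-322, which is 5.31 kb long and is induced as mouse muscle cells differentiate, had all 8 tested members with no overlap, 5 below and 3 above. miR-322-5p and miR-351-5p held most counts and lay lower (log2 changes of -0.36 and -0.53), and miR-450a-5p had 419 and 424 CPM in the 5/6Nx pools, against 489 and 479 CPM in the sham pools. miR-542-3p had 118 and 98.6 CPM in the 5/6Nx pools, against 71.6 and 69.5 CPM in the sham pools, a log2 change of 0.61 ± 0.21 (adjusted p = 0.102, 0.0276 without week 5). miR-503-5p, at 6.26 and 3.16 CPM in the 5/6Nx pools, against 2.65 and 0.638 CPM in the sham pools, rests on few counts, with a log2 change of 1.64 ± 0.70, and 0.77 without sham pool B. The hairpins are read from one strand of chromosome X, at 137720933 to 137726241 in GRCr8.

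miR-201 lies in another X-linked cluster with miR-3585 and miR-547, at 151706708 to 151712161 on the minus strand of GRCr8. Of its 5 tested members 4 lay below sham, and 3 of these had no overlap. Next to miR-201-5p, miR-547-5p had 6.96 and 6.86 CPM in the 5/6Nx pools, against 15.4 and 18.8 CPM in the sham pools, a log2 change of -1.32 ± 0.41 (adjusted p = 0.0934, 0.0276 without week 5). It rests on 10 and 13 counts in the 5/6Nx pools. The member above sham was miR-547-3p, the other arm of that hairpin, with a log2 change of 0.40 and overlapping groups. Counts of miR-547-3p per count of miR-547-5p were 1.90 and 1.38 in the 5/6Nx pools, against 0.655 and 0.390 in the sham pools. Counts of miR-201-5p per count of miR-3585-5p, the most abundant member, were 0.180 and 0.134 in the 5/6Nx pools, against 0.264 and 0.311 in the sham pools.

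Arms and cluster partners were compared as ratios within a library, which do not depend on scaling between libraries. Both arms were tested in 75 hairpins. The log2 changes of the arms had the same sign in 39 and opposite signs in 36, and correlated at r = 0.03 over the 75 hairpins, which share libraries. In 58 of the 75 each arm had at least 10 counts in every pool. The rest had fewer, as few as 2 for miR-503, so count noise enters these figures. The 75 also hold some arms more than once, such as miR-24-3p, and mirror entries such as miR-3557 of miR-378a, so they are not separate observations. The ratio had no overlap between groups in 39 of 75 (52.0%), higher after 5/6Nx in 19 and lower in 20. With 2 pools a side, an exact two-sided permutation test cannot go below p = 0.333, so the ratios are given as values.

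For miR-22, counts of the 3p arm per count of the 5p arm were 1024 and 1202 in the 5/6Nx pools, against 2250.2 and 4471 in the sham pools. For miR-208a, they were 5.94 and 6.99 in the 5/6Nx pools, against 12.5 and 18.3 in the sham pools. In miR-145, where the 5p arm dominates, they were 0.166 and 0.155 in the 5/6Nx pools, against 0.333 and 0.342 in the sham pools. These hairpins thus had less 3p arm per 5p arm in both 5/6Nx pools. The miR-195 ratio was 0.0495 and 0.0909 in the 5/6Nx pools, against 0.103 and 0.180 in the sham pools, and that of miR-126a 0.143 and 0.135 in the 5/6Nx pools, against 0.170 and 0.207 in the sham pools. In the other direction, miR-21 had 0.0140 and 0.0126 in the 5/6Nx pools, against 0.00946 and 0.00714 in the sham pools. The ratio for miR-872 was 1.11 and 1.10 in the 5/6Nx pools, against 0.590 and 0.553 in the sham pools. For miR-24-3p per miR-24-2-5p it was 4.61 and 3.22 in the 5/6Nx pools, against 2.24 and 1.85 in the sham pools, although miR-24-3p also comes from a hairpin on another chromosome.

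**Figure D4:**
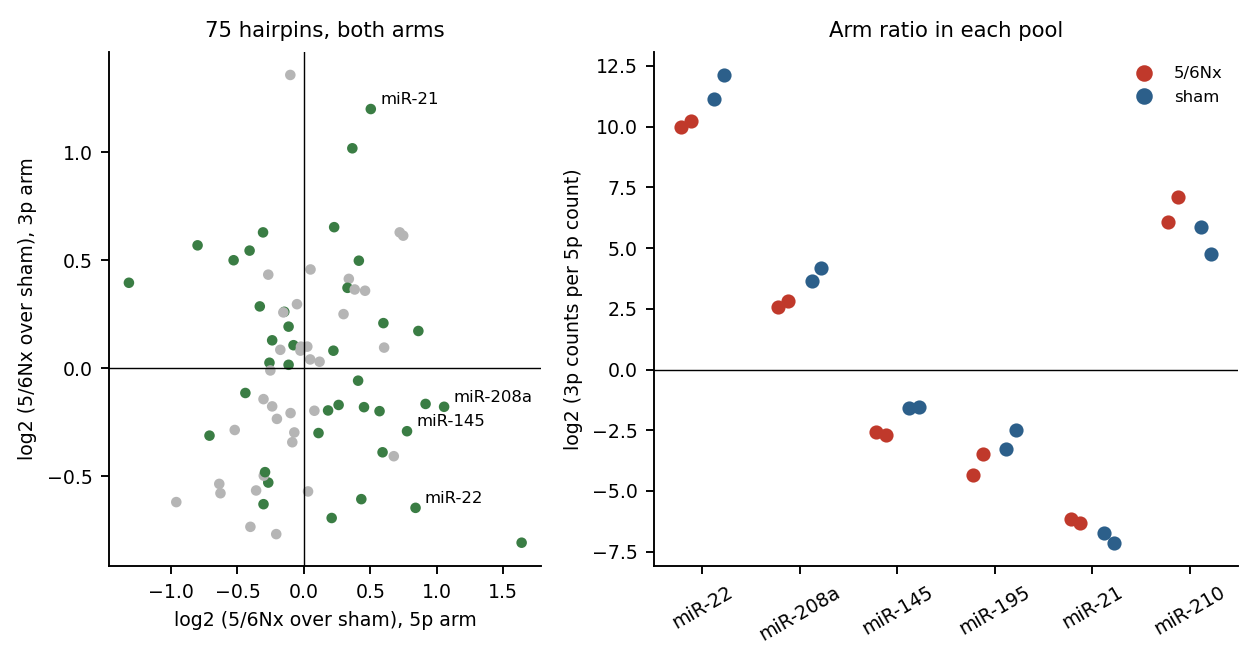
Left, log2 change (5/6Nx over sham) of the 5p arm against that of the 3p arm for 75 hairpins (green, arm ratio without overlap between groups; grey, overlap). Right, log2 of 3p counts per 5p count in each pool (5/6Nx in red, sham in blue): miR-22, miR-208a, miR-145 and miR-195 lie lower after 5/6Nx, and miR-21 and miR-210 higher. The miR-210 ratio rests on as few as 4 counts of the 5p arm in a pool.

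Among clusters with 2 or more measured hairpins, the 2 hairpins with most counts gave 31 pairs of partners, and their ratio had no overlap between groups in 22 of 31 (71.0%). miR-145-5p per miR-143-3p was 0.00639 and 0.00555 in the 5/6Nx pools, against 0.00405 and 0.00432 in the sham pools. miR-222-3p per miR-221-3p, a pair of vessel miRNAs from one transcript, was 0.263 and 0.395 in the 5/6Nx pools, against 0.461 and 0.672 in the sham pools, as miR-221-3p had a log2 change of 0.43 ± 0.18 (0.15 without 5/6Nx pool A) and miR-222-3p one of -0.38 ± 0.28. miR-497-5p per miR-195-5p was 0.500 and 0.651 in the 5/6Nx pools, against 0.892 and 1.33 in the sham pools. miR-23b-3p per miR-27b-3p was 0.0618 and 0.0383 in the 5/6Nx pools, against 0.0314 and 0.0278 in the sham pools, and miR-29b-3p per miR-29c-3p was 0.244 and 0.201 in the 5/6Nx pools, against 0.156 and 0.138 in the sham pools. miR-29b-3p also comes from a hairpin on another chromosome. The 31 pairs hold miR-29b-3p more than once, and pairs of mirror entries such as miR-3571 with miR-133c, so they are not all separate observations. For single miRNAs the share without overlap was 60.5%, so the counts of ratios apart, of arms or of partners, are given as a description.

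The 10 miRNAs with most counts held 68.5% and 68.4% of rat miRNA counts in the 5/6Nx pools, against 70.1% and 69.4% in the sham pools. Besides miR-143-3p, miR-22-3p, miR-133a-3p, miR-27b-3p, miR-30a-5p, miR-378a-3p and miR-3596a, they were miR-26a-5p, miR-181a-5p and miR-30e-5p. miR-26a-5p had 45490.1 and 34166 CPM in the 5/6Nx pools, against 41401 and 41174 CPM in the sham pools, and miR-181a-5p had 22727 and 30058 CPM in the 5/6Nx pools, against 29481 and 27686 CPM in the sham pools, both with overlapping groups. miR-30e-5p had 24758 and 23645 CPM in the 5/6Nx pools, against 25343 and 26551 CPM in the sham pools. Over the 277 tested miRNAs with a matched sequence, the log2 change had a Spearman correlation of -0.02 with GC content, -0.06 with length and -0.07 with level. By first base, the median log2 change was -0.10 for the 75 miRNAs that begin with A (31 above sham), 0.05 for 64 with C (35 above), 0.22 for 21 with G (12 above) and 0.07 for 117 with U (67 above). These are descriptions of miRNAs that share libraries, with no test.

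Week 2 was then set against the later weeks, each with its own sham pools. No miRNA passed the test of the week 2 change minus the mean change at weeks 4, 5 and 7 (0.0% of 306, smallest adjusted p 0.136), while 53 (17.3%) had an unadjusted p under 0.05, DESeq2 called 11 and limma-voom none. Across the 306 miRNAs, the week 2 change correlated with that of week 4 at r = 0.17, of week 5 at r = -0.15 and of week 7 at r = 0.25. miR-351-5p had the smallest p: its change was -0.53 at week 2, and 0.14, 0.55 and 0.19 at weeks 4, 5 and 7, a difference of -0.82 ± 0.18 (SE; adjusted p = 0.136). miR-192-5p had 0.38 at week 2, against -0.13, -0.23 and -0.21 later (difference 0.57 ± 0.15).

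For miR-145-5p the log2 change was 0.78 at week 2 and 0.30, -0.02 and 0.25 at weeks 4, 5 and 7, a difference of 0.60 ± 0.17 (adjusted p = 0.168). miR-201-5p had -1.001, then -0.52, 0.009 and -0.75. miR-451-5p had 1.37, then 0.58, -0.21 and -0.19, and miR-22-3p -0.64, then -0.13, 0.09 and -0.15. miR-21-5p differed from these in order, with 0.50 at week 2 and 0.33, 0.18 and 1.47 afterwards. None of these differences between week 2 and the later weeks passed.

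**Figure D5:**
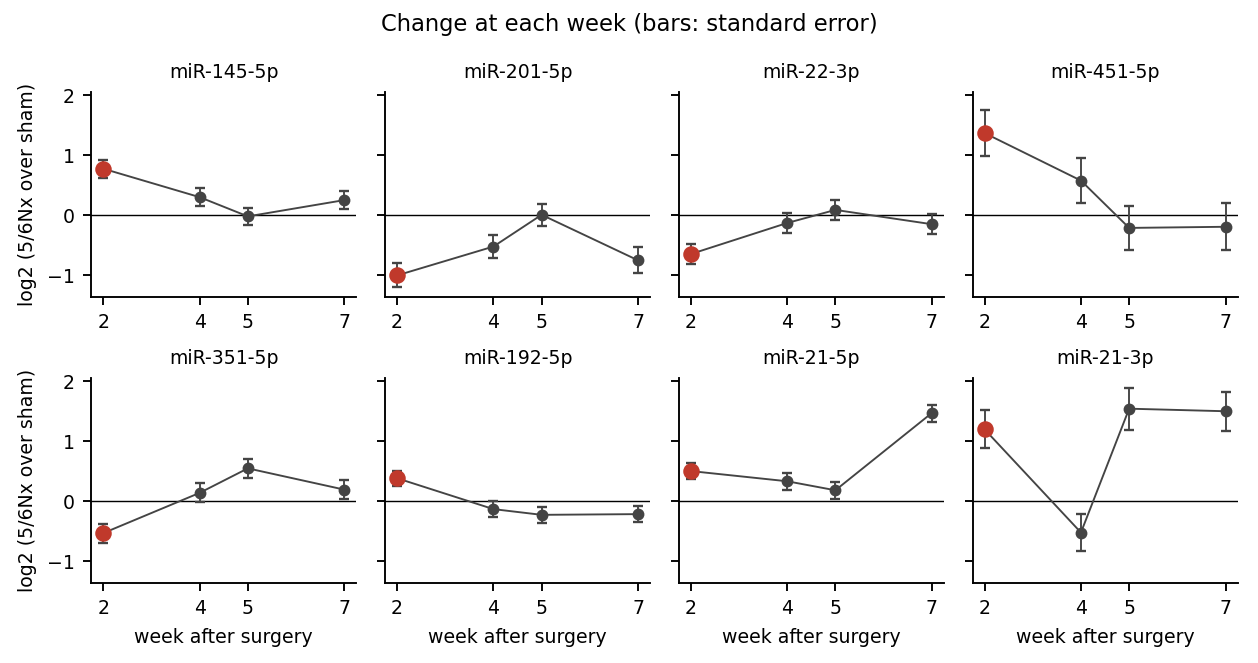
Log2 change (5/6Nx over sham) of 8 miRNAs at weeks 2, 4, 5 and 7, with bars for the standard error of edgeR's fit and week 2 in red. miR-145-5p, miR-451-5p and miR-192-5p stand highest at week 2, miR-201-5p, miR-22-3p and miR-351-5p lowest, and miR-21-5p is higher at week 7 (1.47) than at week 2 (0.50).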

How the data were processed

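Small RNA was isolated with Trizol from frozen, powdered left ventricles and sequenced on an Illumina HiSeq after a TruSeq small RNA preparation, per the labels' protocols. Cutadapt, Bowtie and DESeq are the tools in the submitters' processing notes. The sources used here give no versions, genome build, counting step, use of strand or treatment of reads that match several miRNAs. Each of the deposited tables covers a week and holds raw counts of the 4 libraries, per the file headers, for rat miRNAs (358 at week 2), miRNAs named for other species (150) and loci (386). One read can stand in several of these entries, so the last 2 kinds were left out of tests and library sizes. The alternative with all entries is the exception. A further deposited table gives the percent of reads mapped, and its replicate numbers were not matched to the pool letters. The authors' deposited p-values, adjusted p-values and log2 fold changes of week 2 were used only where named.

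edgeR 4.0.16 (R 4.3.3) was fitted to the counts of all 16 libraries with a mean for each of 8 groups, on the 317 rat miRNAs listed in all 4 tables, with TMM scaling and its filter at a minimum count of 10, which kept 306. The quasi-likelihood F test was adjusted by Benjamini-Hochberg over the 306, with a threshold of 0.05, two-sided. The SE of a log2 change is its size over the root of F. Levels in CPM use TMM library sizes. The fit was tested on simulated data. Families and clusters were matched by name, by bases 2 to 8 of the RefSeq sequence, and by hairpins within 10 kb on 1 strand of GRCr8. The miRNAs and lists were chosen with earlier results of these data known. Named are the miRNAs that passed, filled to 10 per direction by smallest p among those without overlap, the 10 with most counts, and of each list up to 4 members by level plus any with an unadjusted p under 0.05, of which those with values that add to the account are printed. miR-3585-5p, miR-205, miR-9a-5p, miR-128-3p, miR-28-5p, both arms of miR-423, further arms or family members (miR-208a-3p, miR-499-5p, miR-24-2-5p, miR-98-5p) and members shown only by sequence (let-7b-5p, let-7e-5p, miR-17-5p, miR-106b-5p) were added after their values were seen. Further markers of other organs, miR-133c, miR-210-5p, miR-25-3p and miR-547-3p were named last and are not in the counts of named miRNAs. Alternatives were DESeq2 1.42.0, limma-voom (limma 3.58.1), 3 other scalings, no filter, all entries, other sets of weeks, each library left out, and a replicate block.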

Additional observations from a re-analysis of the deposited data

Results flagged for a closer look

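Entries named by genomic locus were used in no comparison above except the fit with all entries. Of them, 9 had no count in either sham pool and more than 3 counts in each 5/6Nx pool at week 2, and 13 had the opposite pattern. The largest was on chromosome 10 (62782730 to 62782812, build not given in the sources used here), with 318673 counts summed over the 5/6Nx pools, 134657 in pool A and 184016 in pool B, against 0 and 0 in the sham pools. A longer entry around it (62782695 to 62782837) had the same 134657 and 184016 counts in the 5/6Nx pools, against 262900 and 500079 in the sham pools, and miR-22-3p had 136219 and 186331 counts, against 265525 and 505191. The others summed to 255 counts (chromosome 6, start 111674231), 134 (chromosome 2, start 227530427), 56 (chromosome 17, start 62932793), 53 (chromosome 12, start 35662767), 28 (chromosome 7, start 121184754), 25 (chromosome 10, start 56858009), 14 (chromosome 15, start 33080868) and 12 (chromosome 1, start 135876857) over the 5/6Nx pools. In all, 186 of 384 such entries had a 0 in at least 1 of the 4 libraries.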

How the results depend on the processing

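With 2 pools a side, the count of calls varied with the test, the entries and the libraries in the fit. Against 2 miRNAs in the full fit, 4 passed with no filter, 39 with DESeq2, 48 without week 5, 1 with weeks 2, 4 and 5 alone and 0 with all entries in the fit (83 at an unadjusted p under 0.05). With a replicate block of pool letter within week, 0 passed (61 at an unadjusted p under 0.05). Same-lettered pools of week 2 deviated with a correlation of 0.10, which rests on 1 pair of pool differences. It cannot show whether same-lettered pools share a batch, and the labels do not say. Leaving out each library gave 0 to 56, with the 2 highest counts, 53 and 56, without week 5 sham pools A and B. For week 2 against the later weeks, 0 became 11 with DESeq2 and 0 to 31 on leaving out a library, with 31 and 28 without week 5 sham pools A and B and 2 without week 2 sham pool A. Arm ratios without overlap numbered 51 to 60 when 1 pool was left out, which leaves fewer pools to overlap. Of 2376 values of 85 named miRNAs under 28 alternatives, 2342 kept their sign. Part of the 85 were named for pools that did not overlap, which largely fixes the sign, so this count is only a description. miR-27b-3p turned to -0.0084 with no filter, -0.050 with all entries and -0.10 with weeks 2, 4 and 5, and ranged -0.086 to 0.11 on leaving out a library. miR-9a-5p, close to 0, was -0.00060 with RLE scaling, -0.00054 with DESeq2, -0.023 with no filter, -0.069 with all entries and -0.11 with weeks 2, 4 and 5. Its range on leaving out a library was -0.11 to 0.052. The same ranges were -0.39 to 0.52 for miR-1-3p, -0.35 to 0.023 for miR-181a-5p, -0.31 to 0.40 for miR-208b-3p, -0.32 to 0.12 for miR-26a-5p and -0.41 to 0.13 for miR-3585-5p. The cause of these differences was not tested. Depth limits miRNAs of few counts, such as miR-503-5p.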
